A study of Homo sapiens with 6 samples.

Results

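Transcripts of 10 genes that make, break down and regulate the polyamines were followed on expression arrays of human prostate epithelial cells with a knockdown of the atypical protein kinase C PKCλ/ι. The genes were taken by symbol, through every probe set annotated with exactly 1 gene symbol that was one of the 10. All 10 were found, each with 1 probe set, among 18404 genes named on the arrays. The cells were PrEC, an immortalized line of normal prostate epithelium, kept in a commercial prostate epithelial growth medium and collected at 48 hours after plating without treatment. The tested cells carried a hairpin against PKCλ/ι and are called shPKCi; the cells they were set against carried the hairpin named shNT, and each line gave 3 biological replicates on 1 array each. Whether a line was 1 clone or a pool, and how many hairpins were used, is not given in the sources used here.

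Putrescine, spermidine and spermine are small cations that bind nucleic acids and are needed for growth. Ornithine decarboxylase (ODC1) makes putrescine, S-adenosylmethionine decarboxylase (AMD1) makes the aminopropyl donor, and the synthases SRM and SMS add aminopropyl groups to give spermidine and spermine. Breakdown runs through acetylation by SAT1 and oxidation by PAOX, or through direct oxidation of spermine by SMOX. Antizymes (OAZ1, OAZ2) bind ODC1 and send it to the proteasome, and the antizyme inhibitor AZIN1, an ODC1 relative without its activity, releases ODC1. Antizyme synthesis needs a ribosomal frameshift that polyamines stimulate, and AMD1 and ODC1 are also controlled in translation and protein turnover, so that transcripts show 1 layer of this pathway. Prostate epithelium is known for very high polyamine output.

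The 3 members that rose, ODC1, SRM and AMD1, are shown with the promoter of SMS, the synthase gene that did not pass the test, to allow a reader to compare the start regions. Capitals mark the E-box CACGTG, the palindromic hexamer that MYC and MAX are known to bind; ODC1 and SRM are known targets of MYC. Each window runs from 250 bases before to 50 bases after an annotated start, in the direction of transcription, from RefSeq on GRCh38.p14. The windows are chr2:10447963-10448262 (minus strand, the more downstream of 2 ODC1 starts), chr1:11059969-11060268 (minus strand), chr6:110874535-110874834 (plus strand, 1 of 3 AMD1 starts) and chrX:21940459-21940758 (plus strand).
ODC1: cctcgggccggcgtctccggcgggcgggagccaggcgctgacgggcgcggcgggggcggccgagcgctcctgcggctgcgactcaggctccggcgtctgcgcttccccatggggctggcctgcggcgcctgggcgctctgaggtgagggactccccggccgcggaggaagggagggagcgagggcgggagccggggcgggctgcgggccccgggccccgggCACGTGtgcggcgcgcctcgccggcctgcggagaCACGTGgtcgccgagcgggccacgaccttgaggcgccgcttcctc
SRM: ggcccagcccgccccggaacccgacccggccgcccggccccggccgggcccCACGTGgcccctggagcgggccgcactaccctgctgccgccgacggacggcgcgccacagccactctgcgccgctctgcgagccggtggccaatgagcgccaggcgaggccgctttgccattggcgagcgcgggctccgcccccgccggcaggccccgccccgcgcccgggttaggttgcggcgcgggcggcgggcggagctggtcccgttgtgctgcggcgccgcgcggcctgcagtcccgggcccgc
AMD1: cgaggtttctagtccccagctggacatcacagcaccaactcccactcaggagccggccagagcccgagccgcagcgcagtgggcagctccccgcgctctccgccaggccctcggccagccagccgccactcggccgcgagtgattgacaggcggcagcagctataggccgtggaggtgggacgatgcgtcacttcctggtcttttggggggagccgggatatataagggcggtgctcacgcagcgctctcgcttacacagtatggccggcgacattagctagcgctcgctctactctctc
SMS: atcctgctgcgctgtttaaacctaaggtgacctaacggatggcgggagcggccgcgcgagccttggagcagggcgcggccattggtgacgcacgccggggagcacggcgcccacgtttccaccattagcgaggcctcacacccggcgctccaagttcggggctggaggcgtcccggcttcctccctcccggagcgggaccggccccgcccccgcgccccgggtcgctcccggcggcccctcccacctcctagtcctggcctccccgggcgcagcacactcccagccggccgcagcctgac
In ODC1 the hexamer began 29 bases upstream of the more downstream start, and again at base 6 counted from that start. The printed window lies wholly downstream of the other ODC1 window, so both matches lie downstream of the other ODC1 start. In SRM the hexamer began 199 bases upstream of the start. In all, 10 windows of 7 members were counted (ODC1 with 2, AMD1 with 3, and 1 each of SRM, SMS, SAT1, OAZ1 and OAZ2). Among the AMD1 windows, those starting at 110874534 and 110874535 are nearly the same sequence. AZIN1 was left out of this count, and no windows of SMOX and PAOX were available. Of the 10 windows, 2 held the E-box, the SRM window and the ODC1 window printed here. The other ODC1 window, chr2:10448278-10448577, did not. Over all 35116 promoter windows of this length, 7.26% held it. The GC box GGGCGG, searched on both strands, was in at least 1 window of 6 of the 7 members and in 45.0% of all single windows. The TATA hexamer TATAAA, also searched on both strands, was in 1 of the 7 (OAZ1) and in 11.5% of all windows. In OAZ1 it began at base 7 of the transcript, not upstream of the start. Only these exact letters were searched, so a window without a match can still hold a variant of the TATA box. These letter matches describe the windows and show no binding.

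The hairpin's target was checked first. PRKCI, the gene of PKCλ/ι, had intensities of 800.3, 810.2 and 753.8 in shPKCi arrays, against 1635, 1428 and 1843 in shNT arrays. Ranked by mean signal over the 18404 genes, 6 basal epithelial markers stood at percentiles from 34 (KRT15) to 99.6 (keratin 5, KRT5). The 6 measured endothelial and blood cell markers stood from 1.17 (PTPRC) to 78.9 (CD68). Array shNT replicate 2 stood apart, with correlations of 0.974 to 0.989 with the others, against 0.982 to 0.996 among the other 5. The test of shPKCi against shNT called 18.5% of the 18404 genes at a limma adjusted p under 0.05 (Benjamini-Hochberg), of which 1758 rose and 1648 fell. With each array centred on its median, 2170 rose and 1321 fell, so that 62.2% of calls were upward, against 51.6% as deposited.

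Of the 4 synthesis genes, 3 rose in shPKCi. Over the 10 members, 3 passed the test as higher and 0 as lower, where 9.55% of all genes were called higher and 8.95% lower. These shares are not matched for signal. Among the 9202 genes above the median signal, tested alone, 1985 were called higher and 1580 lower. Of the members, 8 were among these genes, with 3 called higher and 0 lower. No member was lower at an unadjusted limma p under 0.05 either, the smallest being 0.0867 for OAZ2. The members' median log2 difference was 0.07, against -0.02 over all genes tested. The groups did not overlap in 3 of the 10 members, or 30%, where 35.7% of all genes had groups apart. Counted this way, the members were no more often apart than genes in general, and the 3 genes apart were the 3 called. RNA from bulk cells was measured, in which fewer cells of a type and less RNA per cell cannot be told apart.

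**Figure D1:**
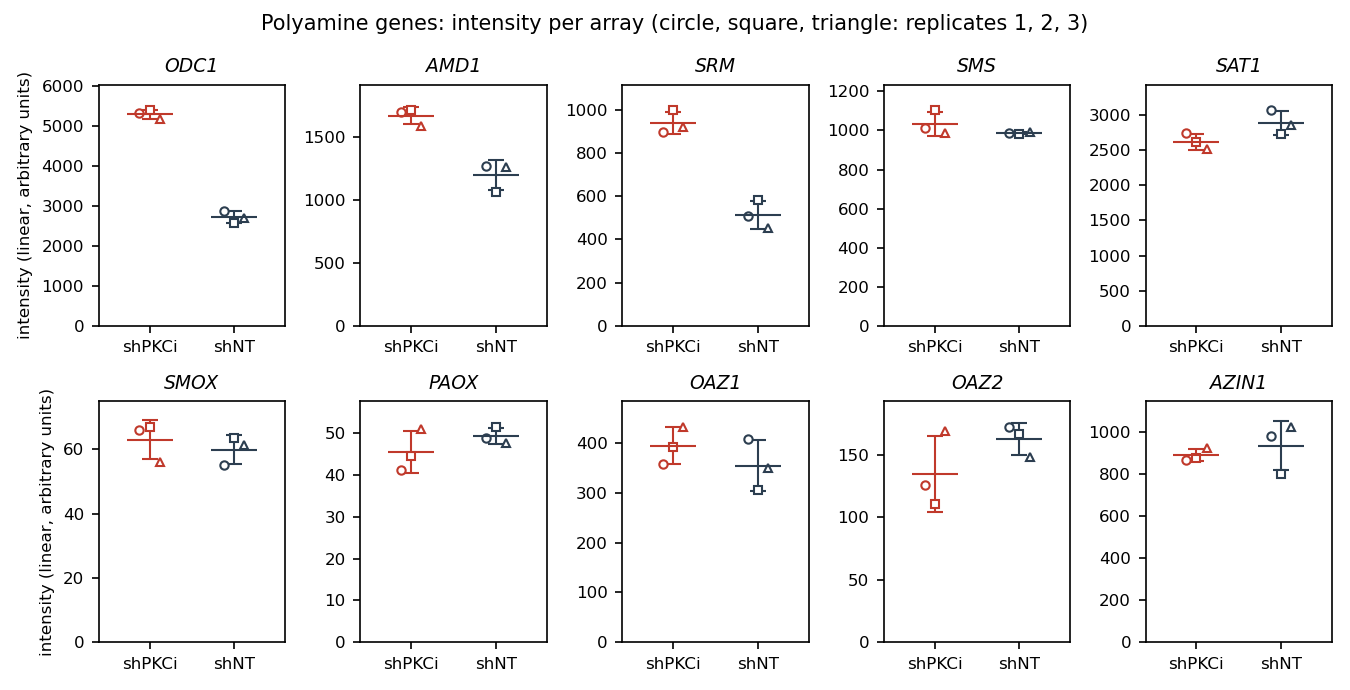
Linear array intensity (arbitrary units, axes from 0) of the 10 polyamine genes in the 3 shPKCi arrays (red, left) and the 3 shNT arrays (dark, right); horizontal marks are means and bars the SD. Only ODC1, AMD1 and SRM have all 3 shPKCi arrays above all 3 shNT arrays.

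ODC1, the entry enzyme of the pathway, had intensities of 5315, 5388 and 5170 in shPKCi arrays, against 2873, 2583 and 2703 in shNT arrays. The lowest shPKCi array thus lay far above the highest shNT array, and the spread within each group was narrow. The means were 5291 ± 111 in shPKCi and 2720 ± 146 in shNT (SD, n = 3 each). The fold was 1.95, with a 95% interval of 1.69 to 2.25 (log2 difference 0.96, SE 0.09, limma adjusted p = 0.000142). This difference stood at percentile 99.2 of the log2 differences of all genes.

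AMD1, which supplies the aminopropyl donor, had 1700, 1710 and 1588 in shPKCi arrays, against 1271, 1063 and 1263 in shNT arrays. The groups did not overlap, and shNT replicate 2 was the lowest of the 6. Mean intensity was 1666 ± 67.8 in shPKCi and 1199 ± 118 in shNT (SD, n = 3 each). AMD1 was 1.39-fold higher (95% interval 1.18 to 1.64; log2 difference 0.48, SE 0.11, limma adjusted p = 0.0117). It was the call with the least room: without shPKCi replicate 1 the adjusted p was 0.0514 and without shPKCi replicate 2 it was 0.0573, with log2 differences of 0.46 in both fits. Without shNT replicate 2 its log2 difference was 0.39 (adjusted p = 0.0123).

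SRM, the spermidine synthase gene, had 897.5, 997.0 and 920.1 in shPKCi arrays, against 509.6, 580.1 and 452.4 in shNT arrays. Every shPKCi array was above every shNT array. Its means were 938 ± 52.1 in shPKCi and 514 ± 64.0 in shNT (SD, n = 3 each), a fold of 1.83 with a 95% interval of 1.54 to 2.19. The log2 difference was 0.87 (SE 0.11, limma adjusted p = 0.000765).

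SMS, the gene of the synthase that converts spermidine to spermine, had 1013, 1102 and 984.2 in shPKCi arrays, against 987.6, 982.1 and 994.1 in shNT arrays. The shNT arrays were almost equal, and shPKCi replicate 3 lay within their range. The log2 difference was 0.06 (95% interval -0.15 to 0.27, adjusted p = 0.723). The interval of SMS ended below the lower bounds of ODC1 (0.75) and SRM (0.62).

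Both synthases transfer the same aminopropyl group, and their changes were set against each other within each array. The log2 difference of SRM exceeded that of SMS by 0.81, and the ratio SRM to SMS was higher in each shPKCi array than in any shNT array. The log2 difference of ODC1 exceeded that of AMD1 by 0.48, again with the groups' ratios apart. For OAZ1 against OAZ2 the gap was 0.45, also with ratios apart, though neither gene passed its own test. Two-sided exact permutation tests gave p = 0.1 for each of these 3 pairs (adjusted p = 0.1 over the 3), which is the lowest value possible with 3 arrays in each line. The pairs were chosen after the values were seen, so these tests cannot decide whether the genes of a pair differ.

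No gene of polyamine breakdown passed the test. SAT1, the acetyltransferase that starts breakdown and export, had 2736, 2610 and 2508 in shPKCi arrays, against 3063, 2731 and 2853 in shNT arrays. Only shPKCi replicate 1 overlapped the shNT arrays, by lying just above shNT replicate 2. The log2 difference was -0.14 (95% interval -0.35 to 0.08, adjusted p = 0.395). In all 15 alternative fits its difference stayed negative, from -0.24 to -0.08, and its adjusted p ranged from 0.0875 to 0.661.

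SMOX, the spermine oxidase gene, had 66.0, 67.0 and 56.0 in shPKCi arrays, against 55.0, 63.5 and 61.2 in shNT arrays. PAOX, the gene of the oxidase of acetylated polyamines, had 41.1, 44.3 and 50.9 in shPKCi arrays, against 48.7, 51.4 and 47.7 in shNT arrays. Groups overlapped in both genes. Their log2 differences were 0.07 (95% interval -0.18 to 0.32, adjusted p = 0.737) for SMOX and -0.12 (95% interval -0.36 to 0.12, adjusted p = 0.522) for PAOX. Both had signal below the median of all genes, at percentiles 45.8 and 39.

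**Figure D2:**
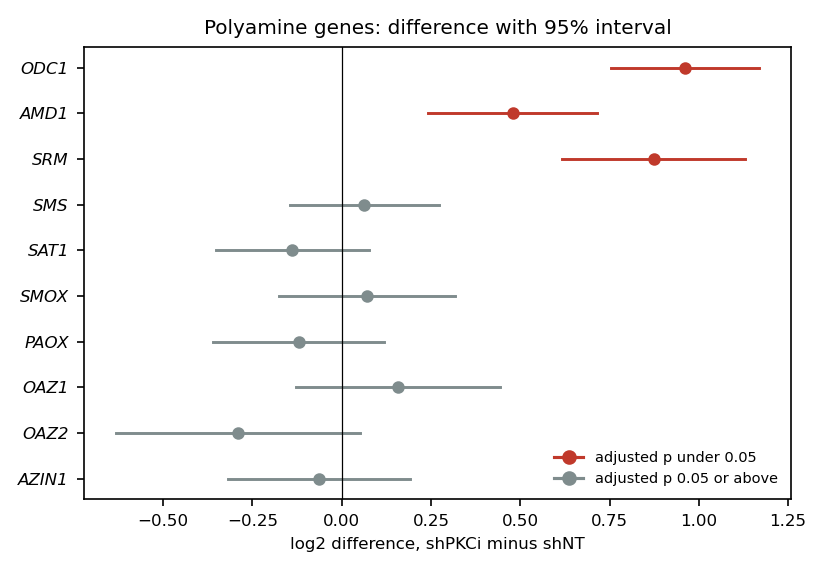
Log2 difference, shPKCi minus shNT, of each polyamine gene (point) with its 95% limma interval (line); red marks an adjusted p under 0.05. ODC1 (0.96), SRM (0.87) and AMD1 (0.48) lie to the right of 0 with their intervals, and the intervals of the other 7 genes include 0.

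The regulators of ODC1 did not pass the test. OAZ1, the main antizyme gene, had 357.6, 390.7 and 431.6 in shPKCi arrays, against 407.7, 305.8 and 348.7 in shNT arrays. These values were interleaved, with shNT replicate 2 the lowest. The log2 difference was 0.16 (95% interval -0.13 to 0.44, adjusted p = 0.478).

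OAZ2, a second antizyme gene, had 125.5, 110.2 and 168.6 in shPKCi arrays, against 172.3, 166.9 and 148.6 in shNT arrays. shPKCi replicates 1 and 2 lay below all shNT arrays, while shPKCi replicate 3 lay among them. OAZ2 therefore had the widest spread of any member in shPKCi, with an SD of 0.31 on the log2 scale. The log2 difference was -0.29 (95% interval -0.63 to 0.05, adjusted p = 0.244). Without shPKCi replicate 3 it was -0.46 and passed the test (adjusted p = 0.0432). In the other fits without 1 array it ran from -0.35 to -0.16 and did not pass (adjusted p from 0.233 to 0.612).

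AZIN1, the antizyme inhibitor gene, had 871.0, 879.0 and 924.7 in shPKCi arrays, against 981.4, 803.4 and 1027 in shNT arrays. All 3 shPKCi values fell between shNT replicate 2 and the other two shNT arrays. The log2 difference was -0.06 (95% interval -0.32 to 0.19, adjusted p = 0.774), and without shNT replicate 3 it was 0.0054. Over the 7 members that did not pass, the 95% bounds reached at most 0.44 upward (OAZ1) and at most -0.63 downward (OAZ2) on the log2 scale.

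**Figure D3:**
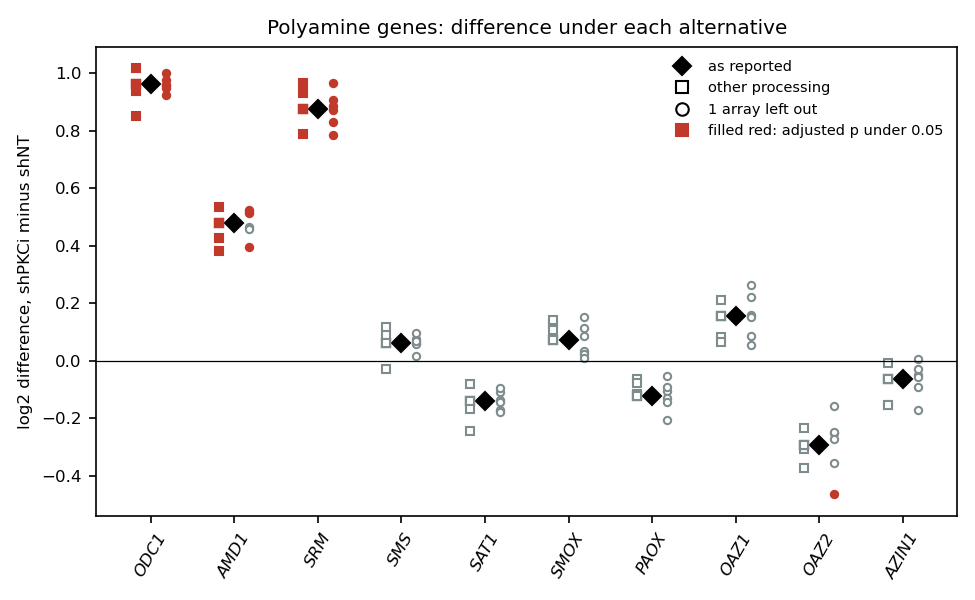
Log2 difference, shPKCi minus shNT, of each polyamine gene as reported (black diamond), under other processing (squares, left) and with 1 array left out (circles, right); filled red marks an adjusted p under 0.05. ODC1 stays between 0.85 and 1.02 in every fit shown, and AMD1 loses its call in 2 fits.

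Genes whose pattern over the 6 arrays was most like that of ODC1 were sought by the root mean square difference of their log2 deviations from their own mean. The 3 nearest of all genes were NSUN2, which encodes an RNA methyltransferase (0.03 log2 units), MRPL50, a mitochondrial ribosomal protein gene (0.03), and IER3, an immediate early response gene (0.05). Their log2 differences were 0.997, 0.94 and 1.01. Among the members, SRM ranked 199 in nearness to ODC1 (0.14) and AMD1 ranked 867 (0.25), and the next, OAZ1, ranked 4100. Such nearness was measured on arrays that also gave the differences above.

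Genes next to the pathway were described from 7 lists with 29 of 32 genes measured. Of the 29, 9 rose, 1 fell and 19 did not pass, so that 34.5% were called, against 18.5% of all genes. The share over all genes is not matched for signal. Among the 9202 genes above the median signal, tested alone, 3565 were called, and of the 7 lists again 9 rose and 1 fell. Their median log2 difference was 0.16. The groups were apart in 18 of the 29, with shPKCi above in 14 and below in 4, where 35.7% of all genes had groups apart. The 4 below were DHPS, SLC7A1, SAT2 and MAT1A. The rest of the lists was not analysed here. Without shNT replicate 2, 11 rose and 1 fell.

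Of the 3 genes for S-adenosylmethionine synthesis, which feeds AMD1, MAT2A rose. Its intensities were 2819, 2814 and 2633 in shPKCi arrays, against 1558, 1510 and 1607 in shNT arrays (log2 difference 0.82, limma adjusted p = 0.000323). MAT2B, encoding its regulatory subunit, had a log2 difference of 0.22 (adjusted p = 0.199), and MAT1A, the liver form, had -0.15 at signal percentile 16.3 (adjusted p = 0.326).

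Of 5 genes that salvage methylthioadenosine, the by-product of both synthases, 2 rose and none fell. MTAP, whose product cleaves it, had 348.8, 329.9 and 326.9 in shPKCi arrays, against 214.4, 244.7 and 226.8 in shNT arrays (log2 difference 0.55, limma adjusted p = 0.00352). ENOPH1, encoding a later enzyme of the salvage, had 1163, 1169 and 1097 in shPKCi arrays, against 881.6, 762.4 and 793.3 in shNT arrays (log2 difference 0.49, limma adjusted p = 0.00697). In both genes the groups were apart. APIP and ADI1 had log2 differences of 0.33 and 0.25 with groups apart and did not pass (adjusted p = 0.14 and 0.134), and MRI1 had -0.15.

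Of 5 genes that supply or use ornithine and arginine, OAT and AGMAT rose. OAT encodes ornithine aminotransferase, a mitochondrial enzyme that interconverts ornithine and glutamate semialdehyde. It had 1140, 1072 and 1099 in shPKCi arrays, against 850.0, 738.4 and 742.5 in shNT arrays (log2 difference 0.51, limma adjusted p = 0.00621). AGMAT, annotated as agmatinase, had 142.5, 171.2 and 179.9 in shPKCi arrays, against 105.8, 88.4 and 96.6 in shNT arrays (log2 difference 0.76, limma adjusted p = 0.00212). The arginase genes ARG1 and ARG2, which form ornithine, had log2 differences of 0.11 and 0.09 and did not pass. The arginine carrier gene SLC7A1 had -0.19 (adjusted p = 0.27).

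Spermidine is the donor for hypusine, a modified lysine found in eIF5A, and 2 of the 3 measured genes of that step changed, in opposite directions. DHPS, the synthase that uses spermidine, had 152.4, 164.2 and 176.4 in shPKCi arrays, against 281.9, 244.3 and 254.2 in shNT arrays. It fell by 0.66 on the log2 scale (limma adjusted p = 0.00204) and was the only gene of the 7 lists to fall. EIF5A2, a second gene for the acceptor protein, had 133.4, 120.6 and 123.8 in shPKCi arrays, against 74.4, 67.7 and 72.5 in shNT arrays, and rose by 0.82 (limma adjusted p = 0.000421). EIF5A itself was not among the measured genes. DOHH, whose product completes hypusine, had a log2 difference of -0.15 (adjusted p = 0.589).

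Of 7 measured genes of polyamine transport and extracellular oxidation, 3 rose. SLC3A2, a heavy chain of amino acid exchangers linked to polyamine export, had 518.9, 489.5 and 500.8 in shPKCi arrays, against 323.9, 348.7 and 326.7 in shNT arrays (log2 difference 0.60, limma adjusted p = 0.00184). The polyamine transporting ATPase gene ATP13A3 rose by 0.37 (adjusted p = 0.0285) and the vesicular polyamine transporter gene SLC18B1 by 0.38 (adjusted p = 0.0359). These last calls were the weakest, since ATP13A3 did not pass in 4 and SLC18B1 in 4 of the 6 fits without 1 array. For ATP13A3 those fits left out any shPKCi array or shNT replicate 1 (adjusted p from 0.0588 to 0.125). For SLC18B1 they left out any shPKCi array or shNT replicate 3 (adjusted p from 0.0584 to 0.125). ATP13A2, SLC12A8, SLC22A2 and AOC1 did not pass, with log2 differences between -0.14 and 0.16.

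Homologues of the members did not pass as reported: log2 differences were 0.0053 for OAZ3, 0.16 for AZIN2, -0.15 for SAT2 and -0.18 for SATL1. AZIN2 passed without shNT replicate 2 (log2 difference 0.30, adjusted p = 0.0333). MYC had intensities of 1698, 1688 and 1779 in shPKCi arrays, against 1419, 1595 and 1410 in shNT arrays. The MYC groups were apart, with a log2 difference of 0.23 that did not pass (adjusted p = 0.149) and passed without shNT replicate 2 (0.28, adjusted p = 0.0423). Its partner MAX had 0.20 (adjusted p = 0.254).

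**Figure D4:**
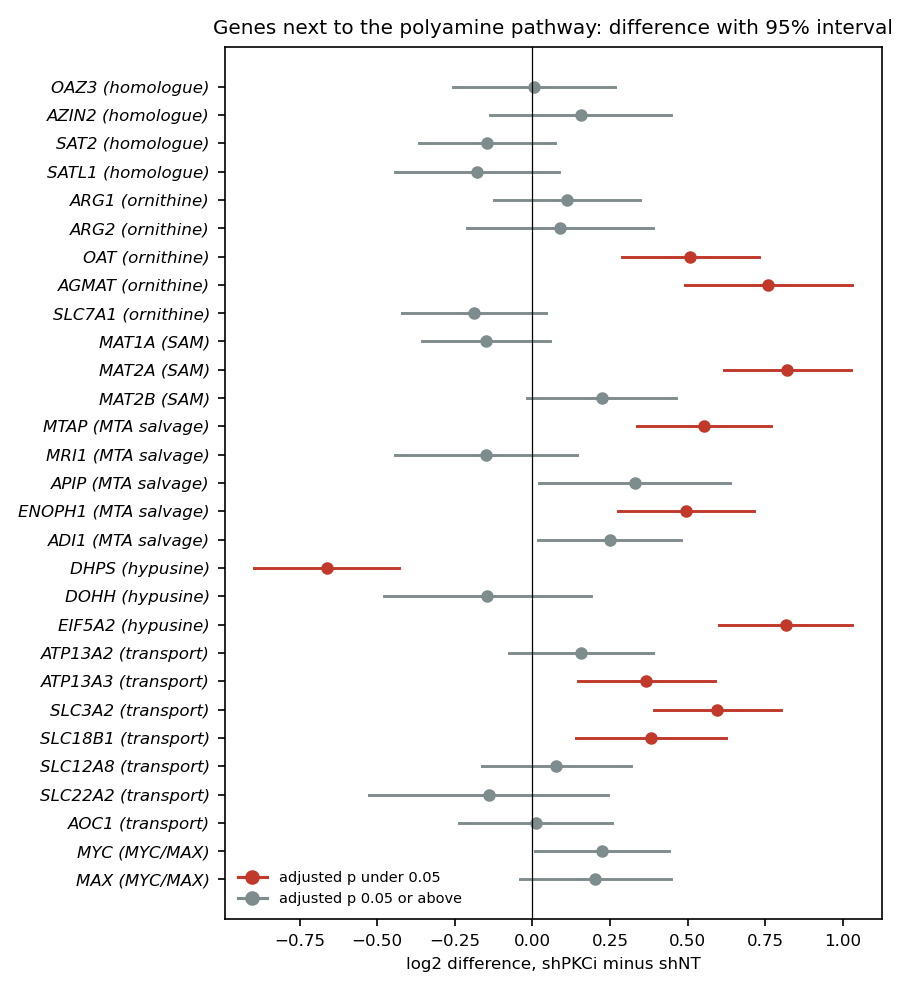
Log2 difference, shPKCi minus shNT, with 95% limma interval, of the 29 measured genes next to the polyamine pathway, with the list of each in brackets; red marks an adjusted p under 0.05. MAT2A (0.82) and EIF5A2 (0.82) lie farthest to the right, and DHPS (-0.66) is the gene called lower.

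Proliferation genes and cell type markers were measured beside the members. Of 5 proliferation genes, MKI67 rose by 0.67 and CCNB1 by 0.64 (limma adjusted p = 0.00185 and 0.0136). CDK1, PCNA and TOP2A did not pass, with log2 differences of 0.58, -0.16 and -0.01. The summed intensity of these 5 ran from 6120 to 6516 in shPKCi arrays, against 4490 to 5821 in shNT arrays. Of 6 basal epithelial markers 4 fell, and their sum ran from 6251 to 6297 in shPKCi arrays, against 7626 to 7975 in shNT arrays. The summed intensity of 7 fibroblast and smooth muscle markers ran from 365 to 378 in shPKCi arrays, against 656 to 698 in shNT arrays, and ACTA2 and COL1A1 were the 2 that fell. Most of the gap in that sum was ACTA2, with 76.3, 68.6 and 79.1 in shPKCi arrays, against 329.2, 294.8 and 370.3 in shNT arrays. DES, COL3A1, DCN and LUM had log2 differences between -0.15 and -0.01 and did not pass. Of these 7 markers, LUM and DCN were the dimmest, at signal percentiles 1.81 and 3.42. COL3A1 stood at 34.6, COL1A2 at 46.1, DES at 56.3, COL1A1 at 62.1 and ACTA2 at 69.7.

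Of 4 measured luminal markers, ACP3 fell by 1.02. KRT8 and KRT18, whose intensities make up most of the list's sum, had log2 differences of 0.34 and 0.27 and did not pass (adjusted p = 0.0624 and 0.218). The luminal sum ran from 2572 to 2664 in shPKCi arrays, against 1845 to 2523 in shNT arrays. Of the general epithelial genes CDH1 and EPCAM, EPCAM rose by 0.60 (limma adjusted p = 0.0128). CDH1 had a log2 difference of -0.29, with all shPKCi arrays below all shNT arrays, and did not pass (adjusted p = 0.0574). Their sum, to which EPCAM gave the larger part, ran from 5539 to 6114 in shPKCi arrays, against 4217 to 5340 in shNT arrays. None of 6 endothelial and blood cell markers passed the limma test, though CD68 had an unadjusted p of 0.0375, and 5 of them stood under signal percentile 30; their sum ran from 329 to 335 in shPKCi arrays, against 359 to 389 in shNT arrays. Whether proliferation or cell state had a part in the rise of ODC1, SRM and AMD1 was not tested. RefSeq names pseudogenes after several members, 4 after AMD1, 3 after SRM and 1 each after ODC1, SMS and OAZ1. Signal from such copies cannot be told apart from the gene's own where they share probe sequence.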

How the data were processed

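RNA of 6 PrEC samples was hybridised to 1 array each and grouped by title into shPKCi and shNT. The deposited values are linear probe set intensities; the authors' normalization is named as RMA, without a version, per the submitters' processing notes, and the genome build is not given in the sources used here. The linear scale was read from the values, and log2 was taken of the deposited intensities. Of 32321 probe sets, 19158 had 1 gene symbol, 1388 had several and 11775 were not listed in the platform annotation; 0 symbols needed an update. The probe set with the highest mean stood for a gene with several. All 6 arrays entered 1 fit with limma 3.58.1 (lmFit, eBayes) in R 4.3.3, with no covariate and no filter, with Benjamini-Hochberg adjustment across 18404 genes and a threshold of 0.05. The fit was tested on simulated data with independent normal noise of the fit's own variances. Those data held no outlying array and no correlated genes, so the test does not cover these. Array number limits the precision, and no detection calls were used.

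The members, the gene lists and the naming rule (all members, called genes of 7 lists next to the pathway, 5 proliferation genes, PRKCI and the 3 genes nearest to ODC1) were chosen with earlier results of these data known. Genes of those lists named without a call, and the 5 cell type marker lists, are given as description. Other settings tried were the replicate number as a block, leaving out each array, median centring, cyclic loess, 2 signal filters, the mean of probe sets, a trended robust variance, array weights and a stricter threshold. A fit over all probe sets was added after seeing the data. Promoter windows are from RefSeq.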

Additional observations from a re-analysis of the deposited data

How the results depend on the processing

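Under 15 alternative fits, 148 values of the 10 polyamine genes were recomputed, and 143 kept their direction and their side of the threshold. ODC1 (log2 difference 0.85 to 1.02) and SRM (0.79 to 0.97) passed in all 15, and AMD1 (0.38 to 0.53) in 13. SMS changed sign after cyclic loess (-0.028), and AZIN1 without shNT replicate 3, with fits without 1 array running from -0.17 to 0.0054; neither passed in any fit, and the cause was not tested. Leaving out 1 array gave 2 to 3 members higher and 0 to 1 lower, the 1 being OAZ2. Next to the pathway, 8 to 12 genes were called in these fits. Genes called in all ran from 2045 (without shPKCi replicate 2) to 3894 (without shNT replicate 2), with 2129 without shPKCi replicate 1. At an adjusted p under 0.01, 2 members were higher (ODC1 and SRM, without AMD1), 8 genes next to the pathway were called and 1772 genes in all. With the replicate number as a block, 3 members were higher and 0 lower, and 8 genes next to the pathway were called, without ATP13A3 and SLC18B1. Deviations from the group means had correlations of 0.12, -0.06 and -0.18 between same-numbered arrays. Between arrays of different numbers they ran from -0.17 to 0.21. With 3 arrays in each group, these values cannot decide whether the numbers pair the samples. SMOX and PAOX were not tested among genes above the median signal. Dim genes have no detection call.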
